A study of Canis lupus familiaris with 15 samples.

Results

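Respiratory complexes II to V were represented by 30 of the 15115 genes that a probeset of the array named alone. They were all genes whose symbol in the platform annotation was SDHA, SDHB, SDHC, SDHD, CYC1 or CYCS, or began with UQCR, COX4, COX5, COX6, COX7, COX8 or ATP5, and each was read at its brightest single-symbol probeset, the one with the highest mean over the arrays. Complex II had 4 members, complex III 8, complex IV 7 and complex V 10, and cytochrome c stood alone as CYCS. Among them, 2 meet the rule by symbol without being classical subunits: COX7A2L, which helps complexes III and IV join into supercomplexes, and ATP5IF1, an inhibitor of ATP synthase.

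The respiratory chain of the inner mitochondrial membrane passes electrons from fuel molecules to oxygen and pumps protons on the way. Complex II, succinate dehydrogenase, takes electrons from succinate and is also an enzyme of the citric acid cycle, complex III hands them from ubiquinone to cytochrome c, complex IV uses them to reduce oxygen, and complex V, ATP synthase, makes ATP from the returning protons. Apart from complex II, these complexes also hold subunits encoded by mitochondrial DNA, and the members described here are nuclear genes.

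Primary appendicular osteosarcomas, malignant bone tumors, were measured in 15 pet dogs on Affymetrix Canine 2.0 arrays, with 1 array per dog. All tumors came from limbs amputated before any chemotherapy, and all dogs then received doxorubicin, a platinum drug or both. The comparison asked which genes differed by outcome. It set 8 dogs whose disease free interval (DFI) was below 100 days against 7 dogs that stayed free of disease beyond 300 days. The DFI < 100 cohort held 3 Greyhounds, a Rottweiler, a Labrador Ret., a Doberman, a Golden Ret. and a dog of mixed breed (Mix), aged 4.4 to 10.8 years with a mean of 7.80 ± 2.28 (SD, n = 8). The DFI > 300 cohort held 4 dogs of mixed breed, a Greyhound, a Rottweiler and a Golden Ret., aged 7.1 to 13.4 years with a mean of 10.5 ± 2.27 (SD, n = 7). The DFI < 100 cohort held 5 osteoblastic and 3 giant cell tumors, and the DFI > 300 cohort 6 osteoblastic tumors and 1 that was poorly differentiated, so subtype, breed and age were not balanced between the cohorts.

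Values are log2 of the deposited PLIER signal, and a difference is DFI < 100 minus DFI > 300, taken between cohort means. The median signal of an array was 46.6 to 54.7 on the linear scale, 50.9 ± 2.36 (SD, n = 8) in the DFI < 100 cohort and 51.7 ± 2.13 (SD, n = 7) in the DFI > 300 cohort. The bone matrix genes COL1A1, COL1A2 and SPARC were bright in the tumors, with mean log2 signals of 13.1, 13.6 and 13.3, while 4 of 11 osteoblast markers, BGLAP, PHEX, DMP1 and MEPE, were below the level of the array's reporter control probesets, 6.79. Of the 30 members, 29 had a mean above that level. COX6A2 was below it at 4.83, and COX4I2 was just above it at 7.01.

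The members had mostly higher values in the DFI < 100 cohort, by small amounts. The difference was above 0 for 28 of 30 members, beside 52.8% of all named genes, and for 27 of the 29 members above the reporter level, beside 52.7% of the 6448 named genes above it. The median difference of the members was 0.19 on the log2 scale, against 0.02 for all named genes. The middle of the members' distribution, from the lower to the upper quartile, was 0.14 to 0.25, against -0.16 to 0.17 for all named genes. The members vary together in part over the dogs, so these counts are not of independent genes.

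No single member passed the test. After Benjamini-Hochberg adjustment over 42860 probesets, limma called 0 members and 0% of all probesets, and every member had an adjusted p of 0.999. At an unadjusted p under 0.05, limma called 2 members, CYC1 and UQCRQ of complex III, both higher in the DFI < 100 cohort, beside 3.68% of all probesets in either direction and 1.83% in that direction. The methods' t-test, the unpaired 2-tailed test with equal variances, called 3 members at an unadjusted p under 0.05, the same pair and ATP5IF1, beside 3.66% of all probesets, and 0 members after adjustment, as it did for 0% of all probesets. The cohorts overlapped for all 30 members, and 0.0187% of all probesets had cohorts that did not overlap. A probe signal from whole tumor pieces cannot tell fewer cells of a type from less RNA per cell.

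**Figure D1:**
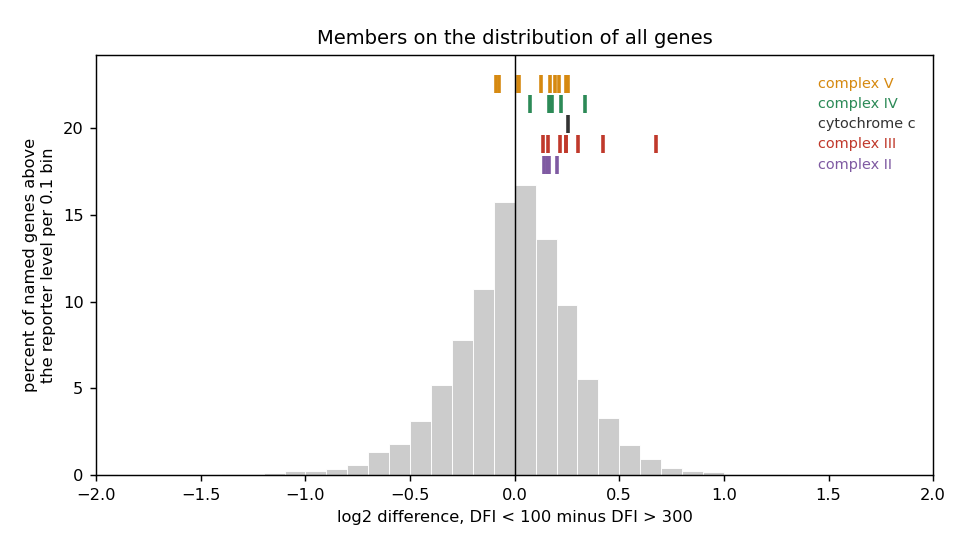
Grey bars give the percent of the 6448 named genes above the reporter control level in each 0.1 bin of the log2 difference between the cohorts (x axis, DFI < 100 minus DFI > 300), and colored ticks mark the 29 members above that level by complex. Most ticks lie between 0 and 0.35, CYC1 is the complex III tick at 0.67, and ATP5PO and ATP5MC2 are the complex V ticks below 0.

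Complex II gave values a little higher in the DFI < 100 cohort for all 4 subunits, with differences of 0.14 to 0.20 and a median of 0.16. SDHA, the flavoprotein that oxidizes succinate, ranged from 10.46 over a median of 11.09 to 11.77 in the DFI < 100 cohort and from 10.62 over 10.88 to 11.45 in the DFI > 300 cohort, a difference of 0.16 ± 0.21 (SE). Its lowest and its highest value were both in the DFI < 100 cohort, in dogs 173175 and 204714. SDHB, the iron-sulfur subunit that carries the electrons on, ranged from 9.70 over 10.15 to 10.72 in the DFI < 100 cohort and from 9.73 over 10.07 to 10.39 in the other, a difference of 0.15 ± 0.19 (SE). In SDHB, dogs 173175, 208756 and 212759 of the DFI < 100 cohort lay above every dog of the DFI > 300 cohort. Dogs 204714 and 208911, also of the DFI < 100 cohort, lay below every dog of the DFI > 300 cohort. SDHB was 9.70 to 10.01 in the giant cell tumors of the DFI < 100 cohort and 10.05 to 10.72 in its osteoblastic tumors. This split by subtype was seen after the fact and was not tested.

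The membrane anchors, which bind ubiquinone, were as close. SDHC ranged from 10.54 over 10.70 to 11.02 in the DFI < 100 cohort and from 9.88 over 10.56 to 11.19 in the DFI > 300 cohort, with a difference of 0.20 ± 0.18 (SE). The DFI > 300 cohort thus held both extremes of SDHC: dogs 168327, 190030 and 208513 were below all DFI < 100 dogs, and dog 180119 was above them. Without dog 190030 the SDHC difference was 0.09. SDHD, the other anchor, had a difference of 0.14 with a 95% interval from -0.40 to 0.68.

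SDHA differed more between the Greyhounds and the other dogs than between the cohorts, an observation made after its values were seen and not tested. In the 4 Greyhounds SDHA was 11.34 and 11.77 and 11.71 in dogs 184844, 204714 and 223986 of the DFI < 100 cohort and 11.19 in dog 208513 of the DFI > 300 cohort. The other 11 dogs lay between 10.46 and 11.45, and 1 of them, dog 180223, was above the lowest Greyhound. The mean of the Greyhounds was 0.62 above that of the other dogs, and without the Greyhounds the cohort difference of SDHA was -0.09. Greyhounds minus other dogs gave 0.08 in SDHC, -0.22 in SDHB and -0.05 in SDHD.

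**Figure D2:**
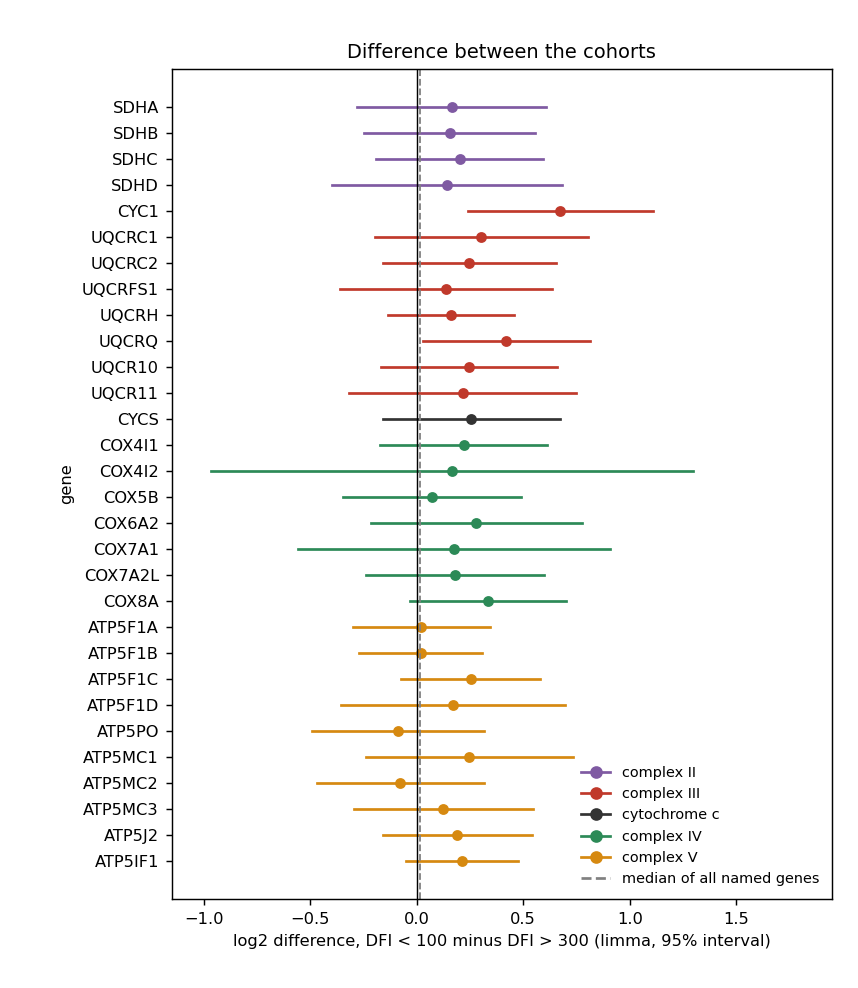
Points give the log2 difference between the cohorts (DFI < 100, n = 8, minus DFI > 300, n = 7) for each of the 30 members, colored by complex, with the 95% interval from limma as a line. The solid vertical line is 0 and the dashed line is the median of all named genes, 0.02, and only the intervals of CYC1 and UQCRQ lie wholly above 0.

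Complex III held the members with the smallest p, CYC1 and UQCRQ. All 8 members had higher means in the DFI < 100 cohort, by 0.14 to 0.67, with a median of 0.25. This was the highest median of the complexes, but in osteoblastic tumors alone it was 0.17, below 0.22 for complex II and 0.20 for complex IV, and without Greyhounds 0.18, below 0.20 for complex II. CYC1 encodes cytochrome c1, the heme protein from which cytochrome c picks up its electron. In the DFI < 100 cohort its signal was 10.17, 10.04, 11.04, 10.13, 10.87, 10.20, 10.83 and 10.82 in dogs 153599, 173175, 184844, 204714, 208756, 208911, 212759 and 223986. In the DFI > 300 cohort it was 9.98, 9.96, 10.36, 9.93, 9.25, 9.81 and 9.59 in dogs 168327, 180119, 180223, 188084, 190030, 193231 and 208513.

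The DFI < 100 dogs formed a lower set of 4 values up to 10.20 and an upper set of 4 from 10.82. The upper set lay above every dog of the DFI > 300 cohort and held osteoblastic tumors only. The 3 giant cell tumors, at 10.13 to 10.20, were all in the lower set, together with the osteoblastic tumor of dog 173175. Of the 7 DFI > 300 dogs, 6 lay below all DFI < 100 dogs, and only dog 180223 reached into their range. The means were 10.51 ± 0.41 (SD, n = 8) and 9.84 ± 0.35 (SD, n = 7), a difference of 0.67 ± 0.20 (SE; 95% interval 0.24 to 1.11), or 1.60-fold, with an unadjusted p of 0.0047 and an adjusted p of 0.999 in limma. Among named genes above the reporter level, 1.19% had a larger positive difference. Leaving out each dog in turn gave 0.58 to 0.76, with an unadjusted p under 0.05 in all 15 of these limma fits. The CYC1 difference was 0.90 in osteoblastic tumors alone and 0.54 without Greyhounds.

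UQCRQ, a small subunit of complex III, followed. Its signal ranged from 11.38 over a median of 11.56 to 12.41 in the DFI < 100 cohort and from 10.96 over 11.26 to 11.66 in the DFI > 300 cohort. The difference was 0.42 ± 0.18 (SE; 95% interval 0.03 to 0.81), with an unadjusted p of 0.037 in limma, and its other probeset gave 0.39 with an unadjusted p of 0.063. Dogs 184844 and 212759 stood high at 12.25 and 12.41, the other DFI < 100 dogs lay at 11.67 or below, and 5 of 7 DFI > 300 dogs were below all DFI < 100 dogs. Without dog 212759 the difference was 0.32, and the unadjusted p was under 0.05 in 9 of the 15 limma fits that left out a dog. With age as a covariate the difference was 0.38 (unadjusted p 0.108) and without Greyhounds 0.37 (unadjusted p 0.125) in limma, so that its unadjusted call was lost in both.

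The other complex III members overlapped widely. UQCRC1 and UQCRC2, the core proteins, had differences of 0.30 ± 0.23 and 0.25 ± 0.19 (SE). UQCRFS1, the Rieske iron-sulfur protein, had the smallest difference of the complex, 0.14 ± 0.23 (SE), and dogs 208911 at 12.38 and 212759 at 10.46, both of the DFI < 100 cohort, were its highest and lowest values. UQCRH, the hinge protein that docks cytochrome c to cytochrome c1, ranged from 12.56 over 12.79 to 13.03 in the DFI < 100 cohort and from 12.29 over 12.58 to 13.05 in the other, a difference of 0.16 ± 0.14 (SE).

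The small subunits UQCR10 and UQCR11 had differences of 0.25 ± 0.19 and 0.22 ± 0.25 (SE). UQCR11 lay above every DFI > 300 dog in 5 of 8 DFI < 100 dogs, yet its lowest value of all, 9.09, was in dog 173175 of the same cohort, and dog 208513 of the DFI > 300 cohort was close to it at 9.15.

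CYCS, cytochrome c itself, the soluble carrier between complexes III and IV that also triggers apoptosis when it leaves mitochondria, ranged from 10.88 over 11.69 to 11.85 in the DFI < 100 cohort and from 10.83 over 11.26 to 12.12 in the DFI > 300 cohort. The difference was 0.26 ± 0.19 (SE; 95% interval -0.16 to 0.67). In the DFI < 100 cohort 6 dogs lay between 11.64 and 11.85, and 204714 and 173175 lay below them. The highest value was in dog 188084 of the DFI > 300 cohort, whose tumor was poorly differentiated, and the lowest in dog 190030 of the same cohort.

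**Figure D3:**
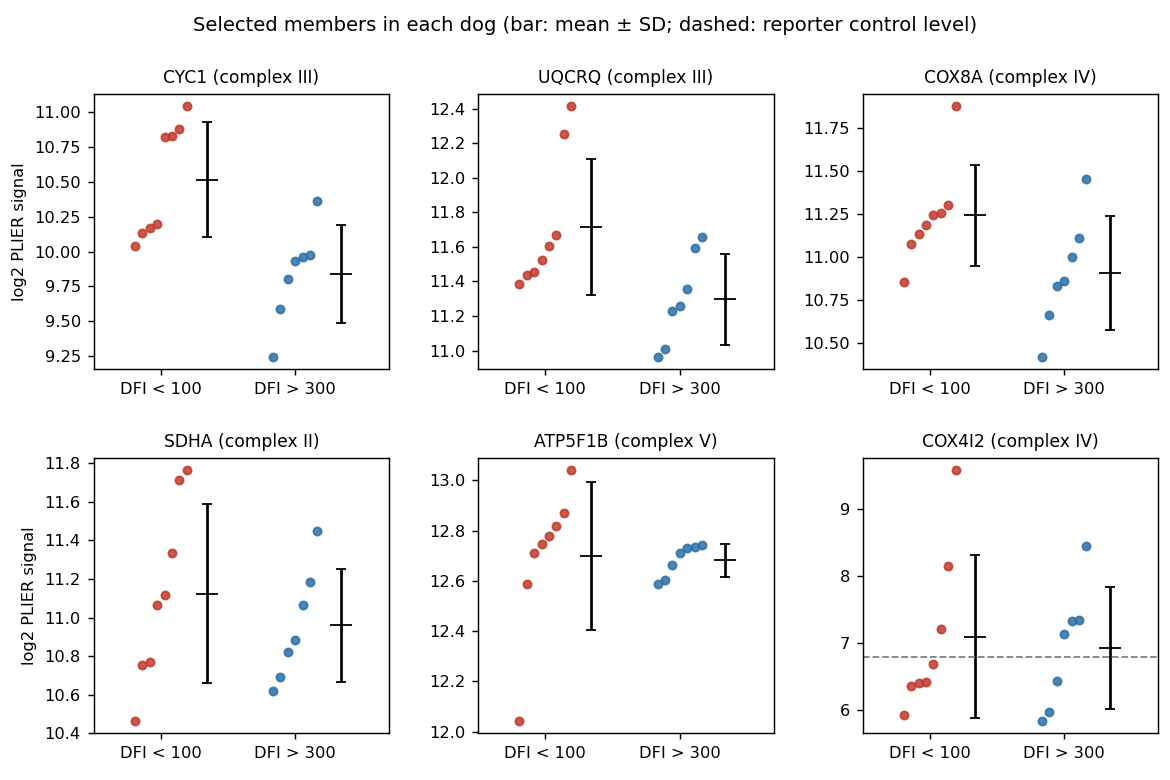
Points are the log2 PLIER signal (y axis, a separate scale for each gene) of CYC1, UQCRQ, COX8A, SDHA, ATP5F1B and COX4I2 in each dog by cohort, and the black bars give the mean ± SD (n = 8 and n = 7). CYC1 has 4 DFI < 100 dogs above all DFI > 300 dogs, ATP5F1B has a narrow DFI > 300 cohort at 12.59 to 12.74, and COX4I2 straddles the dashed line, the reporter control level of 6.79.

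Complex IV members had higher means in the DFI < 100 cohort in 7 of 7, by 0.07 to 0.34, with a median of 0.18. Of the 7, 6 were above the reporter level, and COX7A2L is not a classical subunit. Other subunits, such as COX6A1, COX6C and COX7C, had no probeset under their symbol, so the set is only part of the complex. COX8A, the ubiquitous form of the smallest subunit, was the member with the smallest p. It ranged from 10.85 over 11.22 to 11.88 in the DFI < 100 cohort and from 10.42 over 10.86 to 11.46 in the DFI > 300 cohort, a difference of 0.34 ± 0.17 (SE; 95% interval -0.03 to 0.70) with an unadjusted p of 0.070 in limma. Dog 208756 stood above all others at 11.88, 3 DFI > 300 dogs lay below every DFI < 100 dog, and dog 193231 of the DFI > 300 cohort was second to dog 208756 at 11.46. The 4 probesets of COX8A had differences of 0.31 to 0.35.

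Subunit 4 has an ubiquitous isoform, COX4I1, and an isoform known from lung and induced by low oxygen, COX4I2. COX4I1 ranged from 11.47 over 12.23 to 12.70 in the DFI < 100 cohort and from 11.62 over 11.99 to 12.40 in the other, a difference of 0.22 ± 0.18 (SE). COX4I2 ranged from 5.93 over 6.55 to 9.59 in the DFI < 100 cohort and from 5.84 over 7.14 to 8.45 in the DFI > 300 cohort, a difference of 0.17 ± 0.53 (SE; 95% interval -0.97 to 1.30). It was the most variable member, and 3 tumors stood out above the reporter level: dog 204714 at 9.59, dog 180119 at 8.45 and dog 208911 at 8.16. Its median was lower in the DFI < 100 cohort, and without dog 204714 the difference was -0.19.

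COX7A1 and COX6A2 are the heart and skeletal muscle isoforms of their subunits. COX7A1 ranged from 7.77 over 9.06 to 9.76 in the DFI < 100 cohort and from 7.26 over 9.10 to 9.62 in the DFI > 300 cohort, a difference of 0.18 ± 0.34 (SE). Dogs 193231 at 7.26 and 223986 at 7.77, of opposite cohorts, were far below the others, and without dog 193231 the difference was -0.09. COX6A2 ranged from 4.65 over 4.88 to 5.81 and from 3.63 over 4.77 to 5.36, below the reporter level in all 15 dogs, so that its difference of 0.28 ± 0.23 (SE) is one between dim signals.

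Skeletal muscle markers gave the following values beside these isoforms. Of 13 markers measured, 2 had a mean above the reporter level, ACTA1 at 7.44 and TNNI2 at 6.88. In the DFI < 100 cohort 5 were higher, beside 52.8% of all named genes. The mean of the list was 4.45 to 5.47 in the DFI < 100 cohort and 4.86 to 6.08 in the DFI > 300 cohort. NEB, TNNT1 and MYH1, all with means below the reporter level, had an unadjusted p under 0.05 in limma. All 3 had higher means in the DFI < 100 cohort, beside 1.83% of all probesets past that p in that direction. Their part in the values of COX7A1 and COX6A2 was not tested.

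The remaining members of the complex were COX5B and COX7A2L. COX5B, a subunit of the matrix side that binds zinc, had the smallest difference of the complex, 0.07 ± 0.20 (SE). COX7A2L ranged from 9.37 over 9.91 to 10.18 in the DFI < 100 cohort and from 9.15 over 9.41 to 10.36 in the DFI > 300 cohort, a difference of 0.18 ± 0.20 (SE). Its highest value was in dog 193231 of the DFI > 300 cohort.

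In complex V 8 of 10 members had higher means in the DFI < 100 cohort, and the median difference was 0.15. The catalytic head of the enzyme, F1, holds alternating alpha and beta subunits around the turning gamma subunit. ATP5F1A (alpha) and ATP5F1B (beta) had differences of 0.02 ± 0.15 and 0.02 ± 0.14 (SE), with 95% intervals of -0.30 to 0.34 and -0.27 to 0.31. ATP5F1B lay between 12.59 and 12.74 in all 7 DFI > 300 dogs, an SD of 0.07. In the DFI < 100 cohort it spread from 12.04 over 12.76 to 13.04, an SD of 0.30, with 5 of 8 dogs above every DFI > 300 dog and dog 173175 below them all.

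ATP5F1C, the gamma subunit, ranged from 11.85 over 12.05 to 12.42 in the DFI < 100 cohort and from 11.20 over 11.86 to 12.22 in the DFI > 300 cohort, a difference of 0.25 ± 0.15 (SE; 95% interval -0.07 to 0.58). Dog 180223, at 11.20, lay well below every other dog, and without it the difference was 0.15. ATP5F1D, the delta subunit that joins the head to the rotor, had a difference of 0.17 ± 0.25 (SE).

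The c ring, the rotor in the membrane, is built from 1 mature protein that 3 genes, ATP5MC1, ATP5MC2 and ATP5MC3, encode with different import signals. ATP5MC1 ranged from 10.81 over 11.37 to 12.32 in the DFI < 100 cohort and from 10.52 over 11.21 to 11.67 in the other, a difference of 0.25 ± 0.23 (SE). Without dog 212759, the highest, the difference was 0.12, and it was 0.43 with age as a covariate and 0.46 without Greyhounds.

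ATP5MC2 ranged from 11.30 over 11.48 to 11.98 in the DFI < 100 cohort and from 11.08 over 11.93 to 12.01 in the DFI > 300 cohort, a difference of -0.08 ± 0.18 (SE) that was 0.09 in osteoblastic tumors alone and 0.03 without Greyhounds. The DFI > 300 dogs fell into 4 values at 11.93 to 12.01 and 3 at 11.49 or below. ATP5MC3 ranged from 11.76 over 12.17 to 12.59 and from 11.39 over 11.97 to 12.70, a difference of 0.13 ± 0.20 (SE).

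Outside the head and the ring, ATP5PO, the peripheral stalk subunit also called OSCP that holds the head still, had a difference of -0.09 ± 0.19 (SE), and ATP5J2, the membrane subunit f, one of 0.19 ± 0.16 (SE). ATP5IF1, the inhibitory factor that stops the enzyme from running backward, had the smallest p of the complex V members. It ranged from 12.02 over 12.35 to 12.66 in the DFI < 100 cohort and from 11.92 over 12.11 to 12.26 in the DFI > 300 cohort, a difference of 0.21 ± 0.12 (SE; 95% interval -0.05 to 0.48) with an unadjusted p of 0.106 in limma. In ATP5IF1, 5 of 8 DFI < 100 dogs lay above every DFI > 300 dog, while 173175 and 208911 of that cohort lay at 12.02. Its 3 probesets had differences of 0.19 to 0.21.

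The members had 62 single-symbol probesets, 58 with a higher and 4 with a lower mean in the DFI < 100 cohort, and of the 51 above the reporter level 48 were higher. In 16 genes 2 or more probesets were above that level, and the median over these genes of the lowest correlation between probesets over the 15 dogs was 0.93, down to 0.73 in ATP5F1B and 0.66 in COX8A. Differences between the cohorts were less alike in some genes. The brightest and the next probeset gave 0.18 and 0.04 for COX7A2L, 0.02 and 0.16 for ATP5F1A, 0.14 and 0.05 for UQCRFS1, 0.17 and 0.34 for ATP5F1D and 0.02 and -0.03 for ATP5F1B. These probesets share the RNA and the array, and some share target sequence. Another 5 probesets named several genes and were left out. COX5A, a further complex IV subunit, was named only by such probesets, which had differences of 0.34 ± 0.26 and 0.31 ± 0.17 (SE).

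The mean of all 30 members placed single tumors apart within both cohorts. In the DFI < 100 cohort this mean was 10.55 over 10.91 to 10.99 and in the DFI > 300 cohort 10.44 over 10.74 to 10.88. Dogs 190030 and 168327 of the DFI > 300 cohort had 4 and 5 of 30 members above the members' own means over all dogs, and dog 190030 was the lowest of all dogs in 7 members. Dog 193231 of that cohort had 23 of 30 members above their means, as many as dog 184844 of the DFI < 100 cohort.

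Within the DFI < 100 cohort dogs 208756, 208911 and 184844 had 22, 25 and 23 of 30 members above their means. Dog 173175, a Rottweiler with an osteoblastic tumor, had 8 and was the lowest of all dogs in 7 members, among them SDHA, UQCRC1, UQCR10, UQCR11, COX4I1 and ATP5F1B. In SDHB, ATP5MC3 and ATP5F1D the same dog was above the mean of its cohort.

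**Figure D4:**
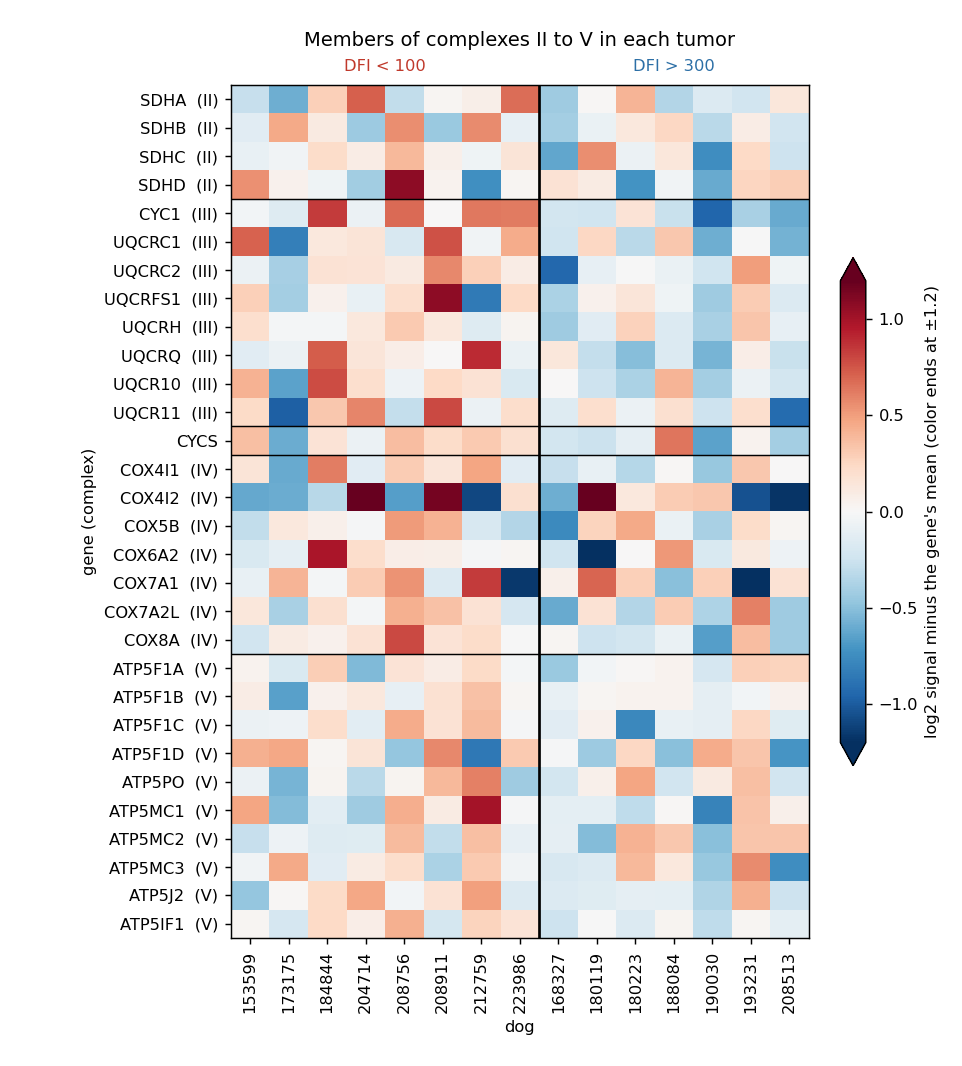
Each cell is the log2 signal of a member (rows, grouped by complex) in a dog (columns, DFI < 100 to the left of the vertical line) minus that member's mean over the 15 dogs, red for higher and blue for lower. Dogs 173175, 168327, 190030 and 208513 are mostly blue, and COX4I2 and COX7A1 hold many of the darkest cells in both cohorts.

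By complex, the mean over members was higher in the DFI < 100 cohort each time. It was 10.29 ± 0.17 against 10.13 ± 0.22 for complex II, 11.18 ± 0.26 against 10.88 ± 0.22 for complex III, 9.40 ± 0.25 against 9.20 ± 0.18 for complex IV and 11.78 ± 0.14 against 11.68 ± 0.17 for complex V (SD, n = 8 and n = 7). In complex III, 5 of 8 DFI < 100 dogs lay above every DFI > 300 dog, and dog 173175, at 10.61, was lower than all but 1 of the DFI > 300 dogs. In complex V 1 of 8 did, and dog 193231 reached 12.02 in the DFI > 300 cohort. The complex IV mean includes COX6A2, below the reporter level, and COX4I2, just above it.

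**Figure D5:**
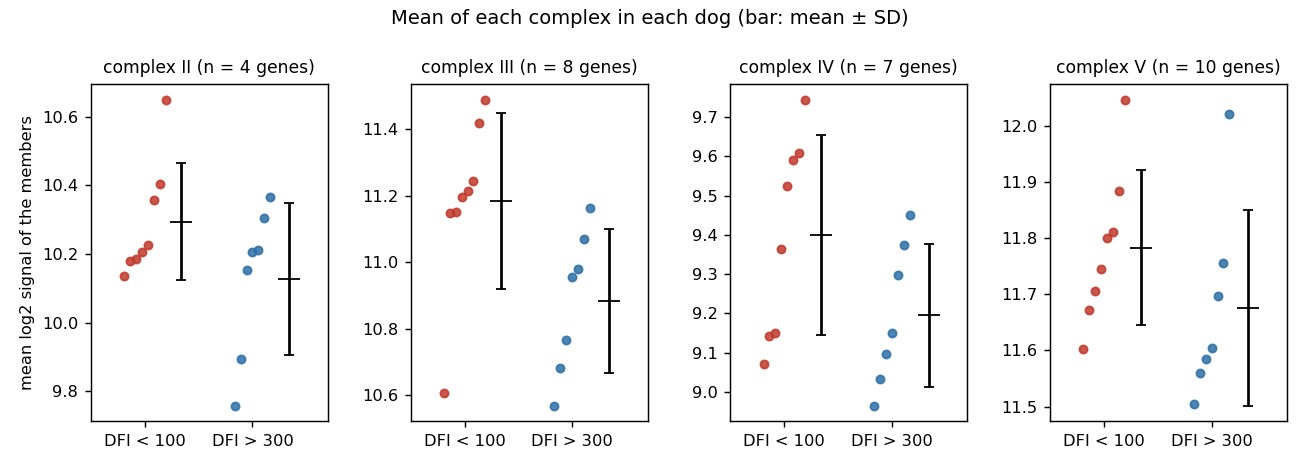
Points are the mean log2 signal of the members of a complex (y axis, a separate scale for each panel) in each dog by cohort, and the black bars give the mean ± SD (n = 8 and n = 7). The cohorts overlap in all 4 complexes, and the isolated low DFI < 100 dog of complex III is dog 173175 at 10.61.

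The members had a smaller median spread than named genes at large and moved together weakly. The median SD within cohorts was 0.36 for the 29 members above the reporter level and 0.50 for all named genes above it. These sets were not matched for brightness, so the smaller spread cannot be told apart from brighter signals. Among the 435 pairs of members, with cohort means removed, the median correlation over the 15 dogs was 0.21 by Pearson and 0.21 by Spearman, and 320 pairs were above 0. It was 0.15 by Pearson without dogs 190030 and 168327, whose member means were the farthest from the median. The 100 pairs within a complex had a median of 0.19 by Pearson, 0.22 by Spearman and 0.18 by Pearson without the same dogs, and the 335 pairs between complexes 0.21, 0.21 and 0.14, so which kind of pair was closer turned with the measure. All pairs share the RNA and the array of each dog.

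COX7A2L was the member closest to the rest, with a median correlation of 0.48, followed by COX4I1 at 0.40 and COX8A at 0.39. The closest pair was UQCRC1 and UQCR11 of complex III (Pearson 0.85, Spearman 0.84). ATP5F1A of complex V and COX4I1 of complex IV came next (0.73 and 0.90). Only 3 members had a median correlation below 0, ATP5F1D at -0.22, COX7A1 at -0.20 and COX4I2 at -0.07, and the lowest pair was ATP5F1D and ATP5IF1 (Pearson -0.67, Spearman -0.74). ATP5F1D was read alike by its other probeset, with a correlation of 0.93.

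The arrays differed in the ratio of 3′ to 5′ actin control signals, which moves with the integrity of RNA and how fully it was copied. This log2 ratio was 1.43 to 1.78 in 5 arrays, of dogs 173175 and 184844 of the DFI < 100 cohort and 180223, 190030 and 193231 of the DFI > 300 cohort, and 2.88 to 3.92 in the other 10. Among the 10 arrays (6 DFI < 100, 4 DFI > 300), 27 of 30 members had higher means in the DFI < 100 cohort, with a median difference of 0.27, beside 49.6% of all named genes. Among the 5 arrays (2 and 3), 16 of 30 did, with a median of 0.01, beside 53.2% of all named genes. CYC1 differed by 0.64 and 0.74 in the larger and the smaller set, UQCRQ by 0.30 and 0.66, the mean of complex III by 0.37 and 0.12 and that of complex V by 0.20 and -0.06. With these sets as a block, 27 of 30 members had higher means, beside 52.6% of all named genes. The study hybridized its samples in 2 batches, of 6 and 10, and later removed a sample. Whether the sets match these batches is not given in the sources used here.

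Within the osteoblastic tumors, 5 against 6 dogs, 25 of 30 members had higher means in the DFI < 100 cohort, beside 56.7% of all named genes. The mean of complex II differed by 0.24, of complex III by 0.26, of complex IV by 0.17 and of complex V by 0.14. There limma called SDHB, CYC1 and UQCRQ at an unadjusted p under 0.05, all higher in the DFI < 100 cohort, beside 2.04% of all probesets in that direction. Within the DFI < 100 cohort the 3 giant cell tumors minus the 5 osteoblastic tumors gave -0.17 for the mean of complex II, 0.20 for complex III, 0.16 for complex IV and -0.06 for complex V, with overlapping values in all 4 complexes. In complex III the giant cell tumors were 11.20 to 11.49 and the osteoblastic tumors 10.61 to 11.42. The complex IV mean includes COX4I2, just above the reporter level, which was 6.40 to 9.59 in the giant cell tumors. In the osteoblastic tumors of the same cohort COX4I2 was 5.93 to 7.21. Its part in the complex IV value was not tested.

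The enzymes and carriers that feed and use the chain gave a mixed picture in the same limma fit, and none of them passed the adjusted test. Of all named genes, 52.8% were higher in the DFI < 100 cohort. Of all probesets, 1.83% were higher there at an unadjusted p under 0.05. The complex I list took symbols starting with NDUF, without those starting with NDUFAF. It thus held NDUFA4 (0.15) and NDUFA4L2 (-1.09), which are not classical complex I subunits. Of its 35 measured genes 27 were higher, with a median difference of 0.14. NDUFA10 (0.67, unadjusted p 0.0044) and NDUFC2 (0.38, unadjusted p 0.031) were past the unadjusted threshold. Of 12 citric acid cycle enzymes 9 were higher, with a median of 0.21. Past the threshold were 2 subunits of the NAD-dependent isocitrate dehydrogenase, IDH3A at 0.52 (unadjusted p 0.038) and IDH3B at 0.41 (unadjusted p 0.011). The other subunit of this enzyme, IDH3G, had a difference of -0.08. CS, citrate synthase, had a difference of -0.20. Of 9 genes for the exchange of ATP and phosphate, which include the member ATP5IF1, 8 were higher with a median of 0.21, among them the adenine nucleotide carrier SLC25A5 (0.40) and the phosphate carrier SLC25A3 (0.24), and 0 were past the unadjusted threshold.

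The genes that build the complexes were nearer to all genes. Of 30 assembly factors of complexes II to V, 16 were higher, with a median of 0.04, beside 52.8% of all named genes. Of these factors 8 had means below the reporter level. COX18 (0.63, unadjusted p 0.034), which inserts a mitochondrially encoded subunit of complex IV, was past the unadjusted threshold, beside 1.83% of all probesets in that direction. Of 10 genes for the expression of the mitochondrial genome, 3 of them below the reporter level, 5 were higher, with a median of -0.05 and 0 past the threshold. Their differences ran from -0.23 for TFAM, the factor that packs mitochondrial DNA, to 0.37 for TFB1M, a factor of mitochondrial transcription and ribosomal RNA methylation. Of 9 regulators of respiratory genes 6 were higher, with a median of 0.07, a range from -0.14 to 0.71 and 0 past it. Among these regulators MYC had the highest difference, 0.71, GABPA had 0.53 and ESRRA 0.47, and YY1 had the lowest, -0.14. The mean of MYC, 6.86, was just above the reporter level, and its mean in the DFI > 300 cohort, 6.47, was below it. Below the reporter level were 5 of the 9, ESRRA, NRF1, GABPB1 and the coactivators PPARGC1A and PPARGC1B.

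Lists of other cells that a tumor piece can hold gave these values beside the members. Of all named genes, 52.8% were higher in the DFI < 100 cohort. Osteoclast markers were higher in the DFI < 100 cohort in 6 of 8, with a list mean of 5.57 to 8.77 against 4.38 to 8.69 in the DFI > 300 cohort. Macrophage markers were higher in 6 of 12 (6.89 to 8.80 against 6.51 to 10.3), endothelial markers in 3 of 9 (6.57 to 8.70 against 6.18 to 7.67), adipocyte markers in 3 of 7 (2.22 to 5.38 against 2.46 to 5.50), chondrocyte markers in 4 of 7 (4.57 to 7.95 against 2.82 to 7.98) and osteoblast markers in 5 of 11 (7.90 to 10.2 against 8.03 to 9.96). T and B cell markers, 3 of 11 higher, and erythroid markers, 1 of 4, had no gene above the reporter level. Cell cycle genes were higher in 10 of 13, with a list mean of 9.22 to 10.4 against 8.91 to 10.6. MCM2 (1.02, unadjusted p 0.0055) and MCM6 (0.56, unadjusted p 0.0051) were past the unadjusted threshold, beside 1.83% of all probesets in that direction. Of the other MCM genes, MCM3 had 0.15, MCM7 0.14, MCM4 -0.33 and MCM5 -0.10, and CDK1 had -0.17. The part of these cells and of proliferation in the members' values was not tested.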

How the data were processed

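RNA of 15 primary tumors, selected by its integrity, was labeled and hybridized to 1 array per dog in 2 batches, and the authors summarized probesets by PLIER with Affymetrix Expression Console (named in the submitters' processing notes without a version). The deposited values are linear intensities, 1 PLIER signal for each probeset and dog. How probes were normalized before PLIER, and which batch an array belonged to, is not given in the sources used here. The cohort of each dog came from its label, and subtype was taken by dog number from the study. Each array is a different dog, so the spread is between animals.

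Of 43035 probesets, 175 controls were left out. Log2 was taken of the other 42860 with no offset. Differences between cohorts were fitted in limma 3.58.1 under R 4.3.3 (linear model, moderated statistics, Benjamini-Hochberg adjustment over all 42860), after a test on simulated data. Genes were named from GEO's platform annotation: 29254 probesets had 1 symbol, 439 several and 13167 none. All 30 members matched the RefSeq gene table by Entrez gene ID. The reporter level is the 95th percentile of 64 reporter control probesets, averaged over the arrays. Probesets measure one gene at their own scale, so no level was compared between genes. Precision is limited by the number of arrays.

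The members and lists were chosen with earlier results of these data known, so no list received a p. Genes described with values per cohort were, in each complex, the 2 with the smallest unadjusted p and the brightest, CYC1, CYCS and members of isoform families, with others by difference and singled-out values. Alternatives were the methods' t-test, 16 added before log2, quantile normalization, bright probesets only, the mean of a gene's probesets, age or the 3′ to 5′ control ratio as a covariate, the osteoblastic tumors alone, all breeds but Greyhounds and each dog left out. The actin control sets as a block were added after seeing the data.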

Additional observations from a re-analysis of the deposited data

Results flagged for a closer look

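In 9 of 70 groups of values, 1 dog lay farther from the rest of its cohort than Dixon's 95% limit, where chance gives about 1 in 20, or 3.5 groups. In the DFI < 100 cohort, dog 173175 was the low value of CYCS (10.88, next 11.40), of ATP5F1B (12.04, next 12.59), of the mean of complex III (10.61, next 11.15) and of the mean of all members (10.55, next 10.79). These 4 share the same array and in part the same genes. Without dog 173175 the median difference of complex III was 0.36 in place of 0.25. In the same cohort dog 184844 was the high value of COX6A2 (5.81, next 5.04, both below the reporter level) and dog 208756 that of COX8A (11.88, next 11.31). In the DFI > 300 cohort, dog 208513 was the low value of UQCR11 (9.15, next 9.82), dog 180223 that of ATP5F1C (11.20, next 11.82), and dog 193231 the high value of ATP5J2 (12.17, next 11.64).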

How the results depend on the processing

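No member had an adjusted p under 0.05 under any alternative. The number with higher means in the DFI < 100 cohort was 25 to 29 of 30 (26 to 28 with 1 dog left out). Of all named genes, 52.1% were higher with age as a covariate, 56.7% in osteoblastic tumors and 53.6% without Greyhounds. Members past an unadjusted p of 0.05 were 1 with age as a covariate and 1 without Greyhounds, CYC1 each time (UQCRQ was then 0.38 and 0.37, against 0.42), and 1 to 3 with 1 dog left out, 1 without dogs 184844, 212759, 180119, 180223, 190030 or 208513. The share of all probesets past an unadjusted p of 0.05 was 3.68% in the main limma fit and was not counted in these fits. Without Greyhounds 2 probesets of the whole table passed the adjusted p, neither of a member. The median difference of complex III was 0.38 with age as a covariate, 0.17 in osteoblastic tumors and 0.18 without Greyhounds, and that of complex V 0.09 without Greyhounds. The order of the complexes by median was not kept. With 1 dog left out the medians were 0.10 to 0.21 for complex II, 0.20 to 0.36 for complex III, 0.16 to 0.29 for complex IV and 0.07 (without dog 208513) to 0.23 (without dog 193231) for complex V.

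The sign of several members turned. ATP5F1B was -0.0057 as the mean of its probesets, -0.012 with the 3′ to 5′ ratio as a covariate, -0.047 in osteoblastic tumors, -0.0067 without Greyhounds, -0.019 with the actin block, and -0.031 to 0.11 with 1 dog left out. COX4I2 was -0.34 in osteoblastic tumors, -0.46 without Greyhounds and -0.19 to 0.42 with 1 dog left out. ATP5MC2 was 0.094 in osteoblastic tumors and 0.031 without Greyhounds, SDHA -0.088 without Greyhounds, and COX7A1 -0.086 to 0.35 with 1 dog left out. UQCR11 was -0.083 without Greyhounds, UQCRFS1 -0.075 and ATP5F1D -0.082 in osteoblastic tumors, and ATP5PO 0.17 with age as a covariate. Without 1 dog, SDHD (-0.0024, dog 208756), COX5B (-0.049, dog 168327), UQCRFS1 (-0.0071, dog 208911) and ATP5F1A (-0.051, dog 168327, and closer to 0 without 4 others) also turned. The cause was not tested. Scaling by quantiles moved the median of all named genes from 0.02 to 0.04. No paired analysis was possible because the labels carry no replicate numbers and each dog is a different animal.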
